A study of Mus musculus with 24 samples.

Results

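The cytosolic ribosomal protein genes were taken from the table as the genes whose symbol is Rpl or Rps followed by a number, with or without a final a or x, together with Rplp0, Rplp1, Rplp2 and Rpsa. The rule found 76 of the 15737 genes in the table, 46 for the large subunit of the ribosome and 30 for the small one. All 76 passed the filter on low counts and were tested. Rps3a1, Fau and Rack1 also encode parts of the ribosome and fall outside the rule.

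RNA was measured in mouse basophils grown from bone marrow for 7 days with IL-3, either wild-type (WT) or lacking tristetraprolin (TTP-KO, here KO), an RNA-binding protein that speeds the decay of inflammatory mRNAs. The labels give no allele, strain, sex or age, and do not tie the 3 libraries of a group to separate animals or cultures. The tests therefore see the variation among libraries, which may be technical. All 8 groups were treated alike before the chase. IgE against the hapten TNP and the uridine analogue 4-thiouridine (s4U) were added on day 6, CD49b-positive cells were enriched with beads, and TNP-coupled ovalbumin was given for 1.5 h with s4U. Cells were then washed and kept without antigen and s4U for 0, 1, 2 or 4 h, the chase. No group went without antigen or without s4U, so the 0 h group is a stimulated state and not a resting one. The values below are total RNA in 3' tag libraries. How much of a transcript carried s4U was not analysed here, so loss of labelled RNA was not measured, and the comparisons bear on the level of the transcripts and on how libraries are scaled to each other.

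The ribosome is built from ribosomal RNA and one copy of most ribosomal proteins, and the mRNAs for these proteins are among the most abundant and longest-lived in a mammalian cell. Their transcripts start within a run of pyrimidines, the 5' terminal oligopyrimidine (TOP) tract, through which the kinase mTOR and the protein LARP1 adjust their translation and stability together. Translation factors such as Eef2 and Eef1a1 carry the same tract and are regulated alongside them.

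The start regions of 8 members are shown because the tract is the sequence feature for which these genes are known, and because the 8 are the 4 with the largest and the 4 with the smallest fall in WT from 0 to 4 h among the 48 members with a single start in RefSeq's promoter table (build GRCm38.p6, an older build than the GRCm39 named in the submitters' processing notes), leaving out genes whose sequence is not printed here. Each is 30 bases on the gene's strand, from 10 before the annotated start to 20 from it, and the capitals mark the longest run of pyrimidines. The first 4 had the largest falls.
Rpl4 (chr9:64173377-64173406, plus): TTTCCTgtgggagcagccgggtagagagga
Rps23 (chr13:90923112-90923141, plus): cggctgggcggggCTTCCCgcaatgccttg
Rps6 (chr4:86857348-86857377, minus): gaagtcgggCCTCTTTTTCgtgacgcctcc
Rps26 (chr10:128626487-128626516, minus): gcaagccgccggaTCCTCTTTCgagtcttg
The next 4 had the smallest falls.
Rpl27 (chr11:101442235-101442264, plus): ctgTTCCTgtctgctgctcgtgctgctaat
Rps28 (chr17:33824543-33824572, minus): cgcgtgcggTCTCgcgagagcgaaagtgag
Rplp2 (chr7:141447641-141447670, plus): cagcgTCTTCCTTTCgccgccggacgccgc
Rps10 (chr17:27635225-27635254, minus): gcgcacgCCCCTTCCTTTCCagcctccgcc
Long and short runs stood in both groups of 4. RefSeq's table held 66 starts of 56 members, and 34.8% of them had a run of at least 8 pyrimidines in this window, against 11.2% of all 32851 starts. The letters CCGGAAG, read on either strand in the 300 bases around the start and known as a core for Ets-family factors such as GABP, were in 36.4% of the members' starts and in 8.86% of all starts. Among members with a single start, the 19 with a run of at least 8 had a median change of -0.67 from 0 to 4 h in WT (log2 scale), and the 29 without one had -0.77. Changes ranged from -1.09 to -0.46 in the first set and from -1.22 to -0.31 in the second, so members with large and small falls were in both.

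Libraries held 8839260 to 25372890 reads, and KO 4 h B and C (named by the letter in the table, which ties to no numbered sample) were the smallest, with 8839260 and 10878380 reads. Members were deeply read, from a mean of 4256 reads per library for the lowest to 68959 for the highest. Basophil markers such as Mcpt8 summed to 30814 to 44440 CPM (counts per 1e+06 reads after TMM scaling between libraries) as group means. Zfp36, which encodes tristetraprolin, was read in every library, at 219 to 269, 104 to 147, 73.3 to 78.8 and 58.4 to 78.2 CPM over the 4 times in WT and at 158 to 210, 36.0 to 58.5, 27.1 to 51.1 and 22.4 to 62.1 in KO. The position of the KO allele within the gene is not given, so 3' tags do not check the genotype. Monocyte and macrophage markers summed to 809 ± 22 CPM in WT and 2151 ± 48 in KO at 0 h (SD, n = 3), with 9 of the 12 higher in KO. Of all genes tested, 0.448% were called higher in KO at 0 h by the edgeR test used below. The authors' read values for members were not whole numbers in 95.4% of cases, against 12.4% for other genes. GENCODE M21 names 298 pseudogenes for 59 of the 76 members, so reads of members may be shared with near-identical copies and each gene's value is uncertain to that extent.

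Before any scaling between libraries, members took 8.81% ± 0.46 of the reads at 0 h in WT (SD, n = 3), 8.07% ± 0.58 at 1 h, 7.41% ± 0.68 at 2 h and 6.88% ± 0.19 at 4 h. The WT libraries at 0 h were at 8.39%, 9.31% and 8.72%, and those at 4 h at 6.67%, 6.96% and 7.02%. The groups did not overlap. In KO the shares were 8.03% ± 0.29, 7.78% ± 0.31, 7.86% ± 0.81 and 8.22% ± 0.72 at the same times. The KO libraries at 0 h were at 7.86%, 8.35% and 7.87%, and at 4 h library A was at 7.41% while B and C were at 8.77% and 8.49%. The KO groups overlapped, and library A lay below all 3 KO libraries of 0 h while the other two lay above them. These shares are descriptions, with no test.

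**Figure D1:**
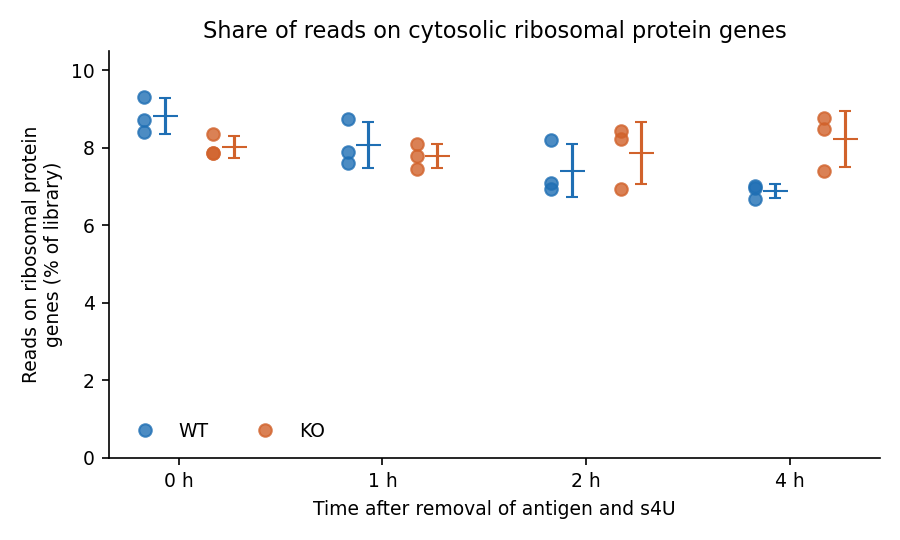
Share of each library's reads on the 76 ribosomal protein genes, in percent of the library (vertical axis), by time after antigen and s4U were removed (horizontal axis). Points are libraries, and the bars beside them are the mean ± SD of 3. WT libraries went from 8.39% to 9.31% at 0 h to 6.67% to 7.02% at 4 h, while KO libraries at 4 h were spread from 7.41% to 8.77%.

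The first comparison follows the members through the chase in WT. At 1 h all 76 had a log2 change below 0, with a median of -0.22, and 0 were called by edgeR's quasi-likelihood test at a Benjamini-Hochberg adjusted p under 0.05 over all 12936 genes tested, of which 1.28% were called lower. Of the members 35 had an unadjusted p under 0.05, and DESeq2 called 5 lower (2.15% of all genes). The share of all genes at the unadjusted threshold is not reported here. At 2 h, 70 were lower and 0 higher (median -0.52), against 6.47% of all genes lower. At 4 h, 73 were lower and 0 higher (median -0.69, range -1.33 to -0.13), against 9.97% of all genes lower, whose median was 0.06. All 3 WT libraries of 4 h lay below all 3 of 0 h for 75 members, as for 16.1% of all genes. The group means fell at each later time for 66 of the 76, with the share of all genes not reported here. Large and small subunit members had similar counts, with 44 of 46 and 29 of 30 lower at 4 h and medians of -0.73 and -0.67.

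In KO the same chase gave smaller estimated falls for most members (the difference itself is tested further on). At 1 h, 2 were lower against 1.51% of all genes, among them Rpl4 (-0.52 ± 0.15, edgeR adjusted p = 0.0495). At 2 h, 28 were lower and 0 higher (median -0.25, 5.77% of all genes lower), and at 4 h 48 were lower and 0 higher (median -0.40, 10.6% of all genes lower). Libraries of 4 h and 0 h did not overlap for 51 members, all lower at 4 h, as for 17.2% of all genes. The means fell at each later time for 44 members, with the share of all genes not reported here. All 48 members lower in KO at 4 h were also lower in WT, 25 more passed the threshold in WT alone, and 3 passed in neither. The fall was larger in WT for 67 of the 76, a count of genes that share the same libraries, with no share of all genes beside it. Across members, WT and KO changes from 0 to 4 h had a Pearson r of 0.58 and a Spearman rho of 0.54 (n = 76 genes, which share the same libraries).

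**Figure D2:**
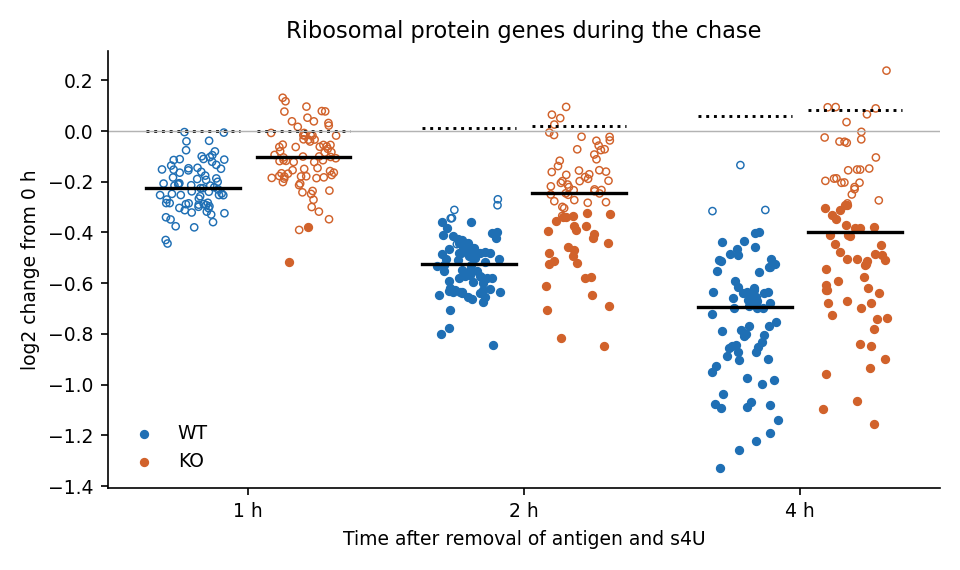
Log2 change from 0 h (vertical axis) of each of the 76 members at 1, 2 and 4 h of chase (horizontal axis), in WT and KO. Filled points passed the test and open ones did not, solid lines are the members' medians and dotted lines the medians of all genes tested. At 4 h the members' median was -0.69 in WT and -0.40 in KO.

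The 3 proteins of the P stalk, which recruits the GTPase translation factors to the ribosome, were spread over most of the range of changes. Rplp0, its base, went from 1412 ± 7.1 CPM at 0 h to 755 ± 83 at 4 h in WT and from 1387 ± 32 to 727 ± 55 in KO (SD, n = 3). These are log2 changes of -0.90 ± 0.10 (SE, edgeR adjusted p = 3.5e-10) and -0.93 ± 0.10 (edgeR adjusted p = 1.3e-10). Rplp1, one of the acidic proteins that hang from it, was at 4087, 5122 and 4402 CPM at 0 h in WT and at 3866, 4286 and 4249 at 4 h. Its KO libraries were at 3869, 4206 and 3760 at 0 h and at 3973, 4250 and 4367 at 4 h. Rplp1 overlapped between the times in both genotypes, and its changes of -0.13 ± 0.10 and 0.09 ± 0.10 passed no test (edgeR adjusted p = 0.432 and 0.627). Rplp2, the partner of Rplp1, stood between them at -0.46 ± 0.10 in WT and -0.29 ± 0.10 in KO, both called lower.

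Among large subunit proteins, the deepest falls in WT included those of Rpl17, Rpl4 and Rpl29. Rpl17, at the exit of the tunnel through which the new peptide leaves, was at 940, 1123 and 1078 CPM at 0 h in WT and at 466, 334 and 451 at 4 h, and in KO at 1008, 1047 and 1049 and then 402, 556 and 494. The times were apart in both genotypes, with changes of -1.33 ± 0.13 and -1.10 ± 0.13. Rpl4, whose loop reaches into the tunnel, fell by 1.22 in WT and 0.90 in KO on the log2 scale, from 800 ± 59 CPM through 624 ± 100 and 490 ± 54 to 343 ± 46 over the 4 times in WT. Rpl29 was at 316, 344 and 348 CPM at 0 h in WT and at 150, 142 and 151 at 4 h, and in KO at 400, 407 and 395 and then 169, 179 and 192. It had the largest fall of all members in KO (-1.15 ± 0.14), close to that in WT (-1.19 ± 0.14).

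Rpl5 and Rpl11, which bind the 5S ribosomal RNA and, outside the ribosome, the p53 regulator Mdm2, were called lower in both genotypes. In WT Rpl5 went from 677 ± 29 CPM to 339 ± 65, and Rpl11 from 1204 ± 40 to 665 ± 15 (-0.86 ± 0.11). In KO Rpl5 changed by -0.74 ± 0.13 and Rpl11 by -0.31 ± 0.11. Rpl3, next to the catalytic centre, had one of the 6 smallest falls in WT (-0.40 ± 0.13) and a change of -0.49 ± 0.13 in KO. Rpl10, which joins the subunit late in its assembly, changed by -0.89 ± 0.09 and -0.85 ± 0.09. Rpl13a, also known for repressing translation of inflammatory mRNAs outside the ribosome, changed by -1.04 ± 0.12 and -0.50 ± 0.12, and Rpl41, a very short peptide, by -0.63 ± 0.10 and -0.30 ± 0.10. Rpl22, an RNA-binding member needed for T cell development, was called lower in WT alone, at -0.59 ± 0.16 against -0.04 ± 0.16 in KO. Rpl21 was called lower in both (-1.09 ± 0.15 and -0.44 ± 0.15). At the other end, Rpl27 was at 944, 1047 and 1006 CPM at 0 h in WT and at 745, 813 and 857 at 4 h, which did not overlap but passed no test (-0.31 ± 0.12, edgeR adjusted p = 0.0702). Its KO libraries overlapped, at 709, 802 and 875 and then 830, 874 and 843.

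Among small subunit proteins, Rps6, the substrate of the S6 kinases downstream of mTOR, changed by -1.09 ± 0.13 in WT and -0.64 ± 0.13 in KO. Rps2 and Rps3, at the mRNA entry channel, changed by -0.70 ± 0.15 and -0.66 ± 0.10 in WT and by -0.84 ± 0.15 and -0.63 ± 0.10 in KO. Rpsa, which binds near the mRNA exit, changed by -0.68 ± 0.11 and -0.59 ± 0.11. All of these were called lower in both genotypes. Rps23, part of the decoding centre, had the largest fall of its subunit in WT, where libraries were at 1421, 1536 and 1508 CPM at 0 h and at 604, 734 and 688 at 4 h (-1.14 ± 0.14). Its KO libraries were at 1596, 1575 and 1434 at 0 h, and at 4 h library A was at 815 while B and C were at 1402 and 1342 (-0.37 ± 0.13, edgeR adjusted p = 0.0461). Rps27a, made as a fusion with ubiquitin, was called lower in WT (-0.87 ± 0.13) and not in KO (-0.20 ± 0.13). Rps14, Rps28 and Rps21 were among the 6 smallest falls in WT, at -0.32 ± 0.13 (not called), -0.40 ± 0.13 and -0.43 ± 0.12. None of these 3 was called in KO, where they were at -0.20, 0.07 and -0.05.

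The next comparison asks how far the fall depends on scaling between libraries. TMM scaling, which assumes that most genes do not change between libraries, gave group mean factors of 0.90 in WT and 0.89 in KO at 0 h, and 1.12 and 1.15 at 4 h. With library size alone the median of all genes tested moved from 0.06 to 0.38 in WT and from 0.08 to 0.45 in KO for 4 h against 0 h. Members then counted 51 lower and 0 higher in WT (median -0.37, 5.78% of all genes lower). In KO they counted 16 lower and 10 higher (median -0.03), where TMM had given 48 and 0, against 6.32% of all genes lower and 16.7% higher. All changes considered, 41 members were below 0 in KO and 35 above, and 73 and 3 in WT. These signs moved with the common shift of all genes. Rplp2, Rps23, Rpl11 and Rpl41 were called lower with TMM and were at 0.0795, 0.00327, 0.0636 and 0.0669 with library size. A factor per library shifts all genes of that library alike, so it cannot move the distance between the median member and the median gene beyond small effects of the fit. That distance was -0.75 in WT and -0.48 in KO with TMM, and its near constancy over other factors tests nothing about the fall. Factors computed from nuclear respiratory chain and proteasome genes gave 75 lower members in WT and 61 in KO, against 10.4% and 13.9% of all genes. Such factors hold their reference genes level on average, though the proteasome median rose in both genotypes with TMM, as given below. The median of all genes tested was then 0.03 in WT and -0.05 in KO.

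**Figure D3:**
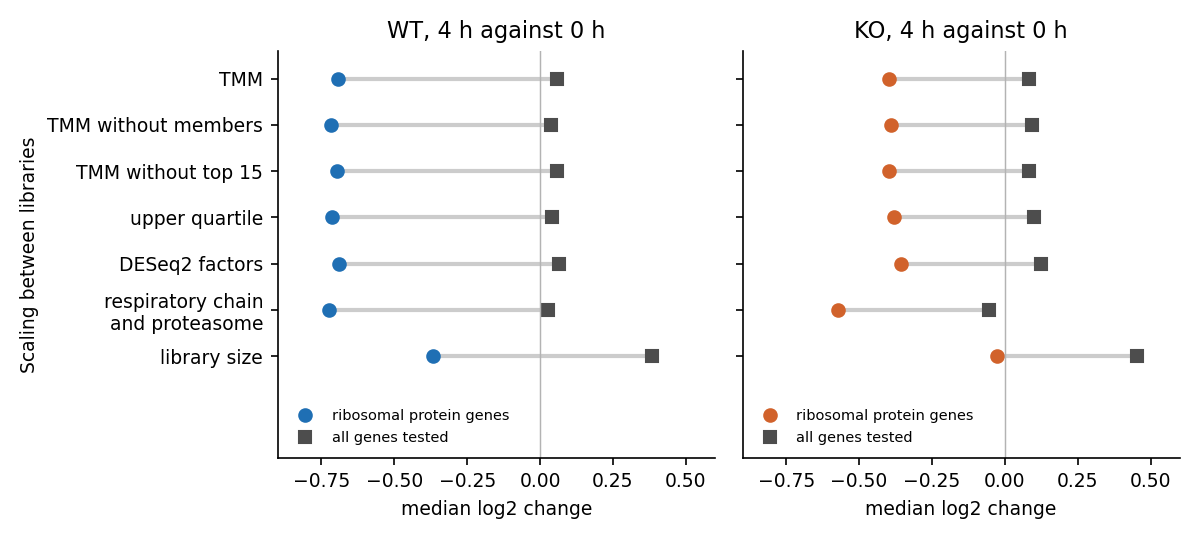
Median log2 change from 0 to 4 h (horizontal axis) of the 76 members (circles) and of all genes tested (squares) under 7 scalings between libraries (rows), in WT (left) and KO (right). Library size moved both medians up, to -0.37 and 0.38 in WT and to -0.03 and 0.45 in KO. The distance between them was -0.75 in WT under all 7 scalings and -0.52 to -0.48 in KO. It is nearly fixed by construction, since a factor per library shifts all genes alike.

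Ratios within a library need no scaling between libraries. The mean log2 level of members over that of the nuclear genes of the respiratory chain was 3.54 ± 0.01 at 0 h and 2.93 ± 0.03 at 4 h in WT, and 3.37 ± 0.04 and 2.96 ± 0.08 in KO (SD, n = 3). Over proteasome genes it was 3.72 ± 0.08 and 2.64 ± 0.05 in WT, and 3.64 ± 0.05 and 2.71 ± 0.13 in KO. These ratios were lower at 4 h in every library of both genotypes. A ratio shows unequal change and does not say which side changed.

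The median gene is far less abundant than the members, so the members were also set beside the 552 other genes at or above the lowest member's mean level of 252 CPM, a list chosen after values had been seen. At 4 h 54.9% of these genes were lower in WT (median -0.42) and 55.1% in KO (median -0.41). The members' median minus theirs was -0.28 in WT and 0.02 in KO. At 2 h the differences of medians were -0.26 in WT and -0.04 in KO. In KO the median member thus lay near the median of other abundant genes at both times, and in WT below it. These differences have no test.

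Lists of related genes moved in different directions. Of 19 other genes with a TOP tract, 17 were lower at 4 h in WT (median -0.61) and 10 in KO (median -0.39), against 9.97% and 10.6% of all genes. Eef2, the translocase of elongation, changed by -0.80 ± 0.11 and -0.74 ± 0.11, and Eef1a1, which delivers aminoacyl-tRNA, by -0.73 ± 0.08 and -0.82 ± 0.08. Fau, whose product is cut to give a ribosomal protein, was lower in both genotypes, and Eef1d and Eef1g were called in neither. The ratio of members to these genes was 1.25 ± 0.05 at 0 h and 1.10 ± 0.06 at 4 h in WT, and 1.22 ± 0.02 and 1.22 ± 0.05 in KO (log2, SD, n = 3).

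Genes for ribosome assembly went the other way. Of 40 ribosome biogenesis genes, 15 were higher and 1 lower at 4 h in WT (median 1.17), and 15 were higher and 0 lower in KO (median 1.11), against 6.76% and 7.45% of all genes higher. Dkc1, the pseudouridine synthase of ribosomal RNA, changed by 1.96 ± 0.24 and 1.32 ± 0.24, and Nop58, a core protein of box C/D small nucleolar particles, by 0.79 ± 0.21 and 1.27 ± 0.21. The lower gene in WT was Npm1, the nucleolar chaperone, which is also in the TOP list. Of 31 proteasome genes, 7 were higher in WT (median 0.23) and 12 in KO (median 0.46), with 0 lower in either. Of 59 nuclear respiratory chain genes, 12 were lower and 0 higher in WT (median -0.12), and 5 were lower and 1 higher in KO (median -0.03). With library size the medians in WT and KO became -0.29 and -0.02 for the TOP list, 1.49 and 1.48 for ribosome biogenesis, and 0.56 and 0.83 for the proteasome. The respiratory chain list was then at 0.20 with 7 higher and 0 lower in WT and at 0.34 with 15 higher and 0 lower in KO, below the medians of all genes, 0.38 and 0.45, of which 14.2% and 16.7% were higher. Of the TOP genes 6 and 3 were then lower and 0 higher, against 5.78% and 6.32% of all genes lower. Of 7 tested paralogs of members, Rps27rt was lower in WT (-0.67 ± 0.15) and Rpl36al was higher in KO (0.76 ± 0.17).

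**Figure D4:**
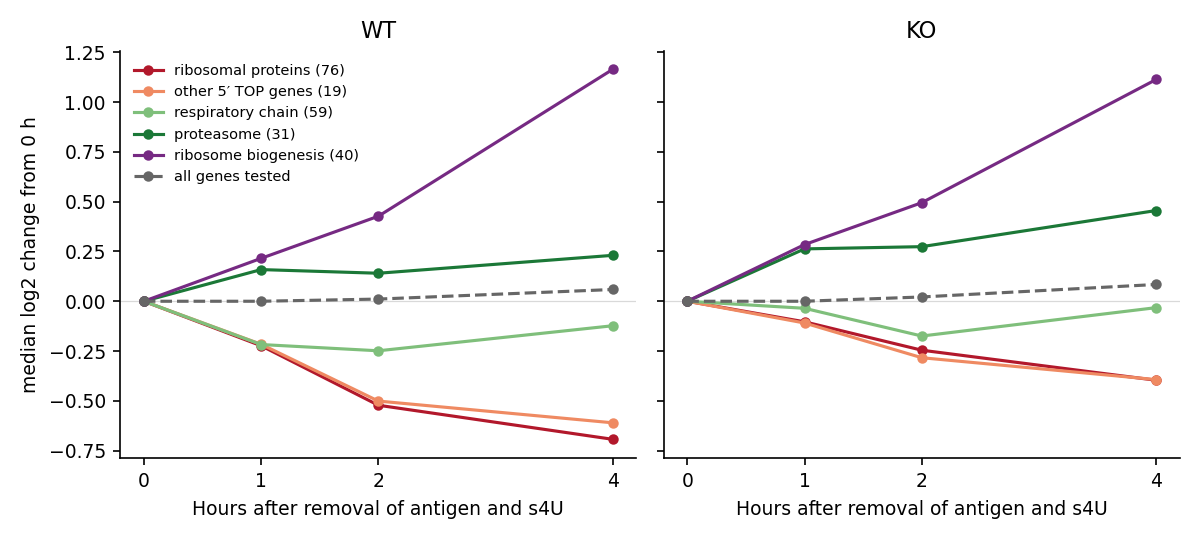
Median log2 change from 0 h (vertical axis) of 5 gene lists and of all genes tested, at 0, 1, 2 and 4 h of chase (horizontal axis), in WT (left) and KO (right). Numbers in the key count tested genes. Ribosomal protein and other TOP genes had the lowest medians at 4 h, at -0.69 and -0.61 in WT and -0.40 and -0.39 in KO, and ribosome biogenesis genes the highest, at 1.17 and 1.11.

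Some markers of other cells were also lower at 4 h than at 0 h, and they are set against 9.97% of all genes lower in WT and 10.6% in KO. Neutrophil markers, summed over 8 genes led by S100a8 and S100a9, went from 4249 to 4677 CPM at 0 h to 2399 to 2651 at 4 h in WT, and from 3666 to 3925 to 3314 to 3450 in KO. Of the 8, 6 were lower in WT and 4 in KO. Macrophage markers went from 788 to 831 CPM to 498 to 533 in WT and from 2105 to 2201 to 1140 to 1484 in KO, with 5 of 12 lower in each. The basophil sum itself went from 42871 to 44191 CPM to 29794 to 32637 in WT and from 42306 to 44024 to 31234 to 32687 in KO, with 5 of 10 lower in each. Eosinophil markers went from 196 to 255 CPM to 158 to 187 in WT and from 229 to 285 to 160 to 220 in KO. Mast cell markers were not lower on average. They summed to 243 ± 8.7 and 266 ± 24 CPM at 0 and 4 h in WT. In KO they summed to 138 ± 16 and 145 ± 23 (SD, n = 3). Dendritic and B cell markers summed to 16.4 ± 4.4 and 23.4 ± 8.9 CPM in WT and to 18.4 ± 6.5 and 29.8 ± 6.1 in KO. Erythroid and progenitor markers summed to 52.6 ± 8.6 and 27.0 ± 17 CPM in WT, without overlap between the times. In KO they summed to 31.2 ± 9.5 and 42.5 ± 6.4, and the times overlapped. NK and T cell markers were at or near 0, with at most 12.8 CPM in sum. In bulk samples fewer cells of a type and less RNA per cell cannot be told apart, and the part of these cells in the members' fall was not tested.

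The last comparison sets KO against WT at each time. At 0, 1 and 2 h edgeR called 0 members in either direction, and DESeq2 called 0 as well. At an unadjusted p under 0.05 there were 11, 3 and 11, and the medians were -0.11, -0.01 and 0.13. The share of all genes at the unadjusted threshold is not reported here, so these counts are a description only. Of all genes edgeR called 0.0773%, 0.1% and 0.108% lower and 0.448%, 0.402% and 0.41% higher at these times. At 0 h, 18 members were lower in every KO library than in every WT library and 2 were higher, as for 6.3% and 6.87% of all genes. The KO shares of reads at 0 h, 7.86% to 8.35%, lay below the WT ones, 8.39% to 9.31%, and this lower start enters the genotype difference in the change from 0 to 4 h. At 4 h, 16 members were higher in KO and 0 lower (median 0.21), against 0.943% of all genes higher and 0.881% lower. The KO and WT libraries did not overlap for 30 members that were higher in KO and 3 that were lower, as for 7.11% and 6.79% of all genes. The 16 were Rps23, Rpl21, Rps7, Rpl39, Rpl13a, Rpl26, Rps27a, Rpl11, Rpl31, Rpl23, Rps12, Rpl36a, Rps19, Rps24, Rpl34 and Rps15a, 9 of the large subunit and 7 of the small. All 16 were called lower at 4 h than at 0 h in WT, and 6 of them in KO, as were 73 and 48 of all 76 members. The 16 were called with the same 4 h libraries, so these counts are no separate support.

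Rps23 differed most, by 0.81 ± 0.14 (edgeR adjusted p = 0.00014), with the 4 h libraries at 604 to 734 CPM in WT and at 815, 1402 and 1342 in KO. Rpl36a was at 767, 1014 and 750 CPM at 0 h and at 469, 467 and 532 at 4 h in WT. In KO it was at 643, 689 and 709 and then 574, 907 and 928, so at 4 h every KO library lay above every WT library (0.71 ± 0.15, edgeR adjusted p = 0.0037). Rpl36a also had the highest change from 0 to 4 h of all members in KO (0.24 ± 0.15, not called). Rps15a, a small subunit protein, was at 1162, 1310 and 1213 CPM at 0 h and at 736, 843 and 793 at 4 h in WT, and in KO at 1037, 1172 and 1022 and then 965, 1229 and 1256 (KO against WT at 4 h 0.54 ± 0.12, edgeR adjusted p = 0.0046). Rpl39, a short protein in the exit tunnel, and Rpl26, at its exit, differed by 0.71 ± 0.14 and 0.69 ± 0.15. Rpl34 differed by 0.46 ± 0.12 (edgeR adjusted p = 0.0348). At the other end were, among others, Rpl8, Rps10, Rps14, Rpl15 and Rps3, none of them called, at -0.24 to -0.09. Rpl8, which binds beside the catalytic centre, was at 683, 683 and 629 CPM in WT at 4 h and at 576, 546 and 569 in KO, and Rps10, near the mRNA entry, at 1006, 911 and 897 and at 831, 805 and 793. KO libraries of both genes lay below all WT ones, without passing the test (edgeR adjusted p = 0.341 and 0.482), and at 0 h both were also lower in KO on average.

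Whether the change over the 4 h of chase differed by genotype was tested directly. It did for 5 members, all with the smaller fall in KO, against 0.085% of all genes called in that direction and 0.108% in the other (median of members 0.32). These were Rpl36a (1.02 ± 0.21), Rpl26 (0.93 ± 0.21), Rpl39 (0.92 ± 0.19), Rps12 (0.75 ± 0.16) and Rps15a (0.73 ± 0.16). Rps23 was at 0.77 ± 0.19 (edgeR adjusted p = 0.0786), and Rplp0, Rps3 and Rpl10 were at -0.03 ± 0.14, 0.03 ± 0.15 and 0.04 ± 0.13.

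The genotype difference at 4 h was larger in KO libraries B and C, the 2 smallest, than in A. Set against the WT mean of 4 h, the median member was at 0.08 in KO library A, with 51 of 76 above 0, and at 0.27 and 0.26 in B and C, with 62 and 65 above 0. For all 16 called members A was the lowest of the 3 KO libraries, and A lay above every WT library for 14 of them. Among all 76 members A was the lowest KO library for 52 and lay above every WT library for 34. The 16 were called from these same libraries, so their order is no separate support. Without B and C, which leaves 1 KO library, 0 members were called at 4 h (median 0.06, 0.425% of all genes higher) and 1 in the difference between the changes, Rpl39 (0.66, 0.108% of all genes). Without B alone or C alone 8 were called at 4 h, and without A 24, with the shares of all genes in these fits not reported here. A fit of the 4 h libraries alone called 1 (0.34% of all genes), and factors from respiratory chain and proteasome genes gave 5 higher and 2 lower, against 0.611% and 3.28% of all genes. Within KO, 46 members were lower at 4 h than at 0 h without B and C (median -0.53, 8.04% of all genes lower). The median member was higher in B and C than in A, so leaving them out favours a deeper fall. That fit has 1 KO library at 4 h and cannot show whether the fall rests on B and C. Without A, which keeps B and C, the members' median change in KO was -0.33. With library size alone 16 were lower and 10 higher at 4 h in KO (median -0.03), against 6.32% and 16.7% of all genes. Macrophage markers were higher in KO at this time too, with 7 of 12 called and sums of 1140 to 1484 CPM in KO against 498 to 533 in WT. Neutrophil markers were at 3314 to 3450 CPM in KO against 2399 to 2651 in WT, with 2 of 8 called higher. Of all genes 0.943% were called higher in KO at 4 h. The part of depth or of these cells in the difference was not tested.

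**Figure D5:**
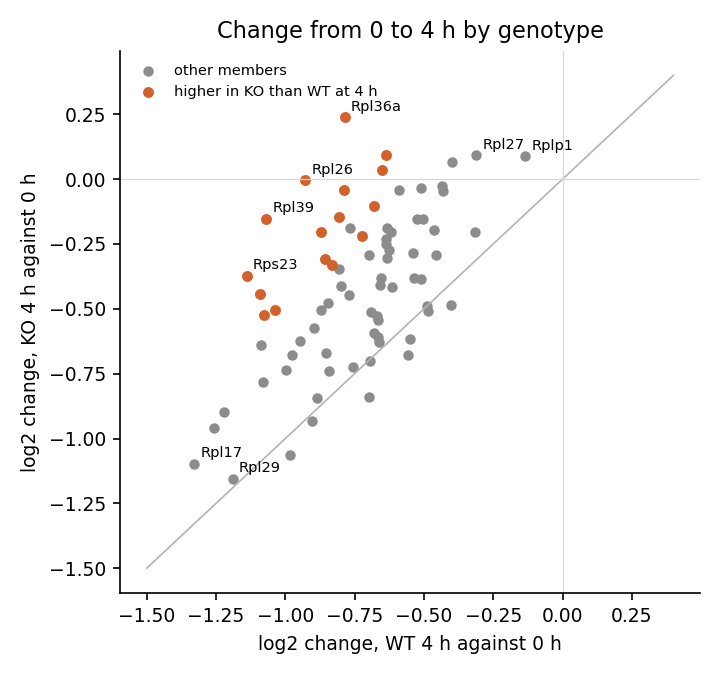
Log2 change from 0 to 4 h of each of the 76 members in WT (horizontal axis) and KO (vertical axis), with the line of equal change. Coloured points are the 16 members called higher in KO than in WT at 4 h. The fall was larger in WT for 67 members, which lie above the line, and Rpl36a had a change of -0.79 in WT and 0.24 in KO.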

How the data were processed

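Total RNA was read as 3' tags (QuantSeq) in 24 libraries, 8 groups of 3. The authors deposited 1 table of expected counts for each gene and library, without normalization. Tools in the submitters' processing notes, listed without role, are STAR 2.7.10a, cutadapt 3.5 and SAMtools, with the build GRCm39, and the annotation is not given in the sources used here. Column letters tie to a group and to no sample, and this holds for the reads too. Only 1 measure per library was used, the reads, compared by group. The other 144 columns of per-library values, which per the file headers hold estimates of the labelled share, were not used here.

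Counts were rounded, scaled with TMM and filtered with filterByExpr (12936 genes), and tested in R 4.3.3 with edgeR 4.0.16 in 1 quasi-likelihood fit of 8 group means, with Benjamini-Hochberg adjustment over all genes tested and a threshold of 0.05. Scripts were tested on simulated data, with changed genes drawn at random from all genes tested. For WT 4 h against 0 h they recovered 5% of 100 genes changed 1.5-fold and 27% of 100 changed 2-fold. Of 34 calls 2 were false. Chi-square per degree of freedom between libraries of a group was 29.5 to 77.2, so no library repeated another. Alternatives were 5 other scalings, DESeq2 1.42.0, no filter, the compared groups alone, a block for the letter, and leaving libraries out. CPM have no interval beyond the SD of libraries.

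The members, the gene lists and the tests were chosen with earlier results of these data known. Named were 17 members with textbook roles and, at 4 h, the 6 highest and 6 lowest changes in WT, in KO and between them, with values for each library for the first 2 in each direction; values of some genes under this rule are not reported here. Start regions were matched by symbol.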

Additional observations from a re-analysis of the deposited data

Results flagged for a closer look

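The change from 0 to 4 h differed between KO and WT by the test of the difference itself for 5 members (edgeR's quasi-likelihood test with Benjamini-Hochberg adjustment, 3 libraries a group). The differences, KO minus WT on the log2 scale, were 1.02 for Rpl36a (adjusted p = 0.0272), 0.92 for Rpl39 (adjusted p = 0.0284), 0.75 for Rps12 (adjusted p = 0.0378), 0.93 for Rpl26 (adjusted p = 0.0398) and 0.73 for Rps15a (adjusted p = 0.0398). Their WT changes were between -1.07 and -0.64, all called, and their KO changes between -0.15 and 0.24, none called. Over 22 settings Rpl39 was called in 21, Rpl36a in 20, Rps12 in 17, Rps15a in 14 and Rpl26 in 13. Leaving out KO 4 h libraries B and C left 1 KO library at 4 h. The differences were then 0.66 for Rpl39, 0.53 for Rpl36a, 0.47 for Rps12, 0.47 for Rps15a and 0.47 for Rpl26.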

How the results depend on the processing

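The WT counts of lower members at 4 h stayed within 1.5 times of 73 in every setting. With library size alone 21 were lower in WT at 2 h (3.2% of all genes). In KO 0 were called at 1 h and 8 were lower at 2 h (3.46% of all genes). At 4 h in KO 16 were lower and 10 higher, against 6.32% and 16.7% of all genes. In the difference between the genotypes' changes 8 were higher (0.17% of all genes). Rplp2, Rps23, Rpl11 and Rpl41 turned to 0.0795, 0.00327, 0.0636 and 0.0669 in KO at 4 h. TMM without the members gave 1 lower in WT (1.33% of all genes) and 0 in KO at 1 h, and upper quartile factors 0 in KO at 1 h. Respiratory chain and proteasome factors gave 2 lower for KO against WT at 1 h (0.588% of all genes). At 4 h these factors gave 7, of which 5 were higher and 2 lower (0.611% and 3.28% of all genes). In the difference they gave 2 higher (0.0387% of all genes). No filter gave 4 lower in WT at 1 h (1.62% of all genes) and 11 higher in the difference (0.379%). DESeq2 gave 5 lower (2.15%) and 11 higher (0.804%). Only the compared groups gave 2 lower in WT at 1 h (1.85% of all genes) and 1 higher for KO against WT at 4 h (0.34%). Without KO 4 h B and C there were 0 at 4 h and 1 in the difference. The cause of these shifts was not tested.

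Leaving out 1 library each gave 0 to 2, 51 to 75 and 68 to 73 members in WT at 1, 2 and 4 h, and 0 to 2, 14 to 25 and 37 to 46 in KO. For KO against WT it gave 0 to 0 at 0 and 1 h, 0 to 4 at 2 h and 8 to 24 at 4 h, and 0 to 19 in the difference. In the difference 0 were called without WT 0 h B, 2 when KO 0 h A or KO 4 h B was left out, 3 when KO 0 h C, WT 4 h A or KO 4 h C was, and 19 when KO 4 h A was. The 14 in KO at 2 h was without KO 2 h B, and 16 were called without KO 0 h B. A group left with 1 library was assumed to vary like the others. The shares of all genes in the fits with 1 library left out are not reported here.

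Column letters did not pair libraries (r over 84 pairs -0.11 to 0.10, and 8 of 24 libraries closest to their own letter). With a replicate block for the letter, members called in WT were 0, 69 and 73 at 1, 2 and 4 h and in KO 2, 26 and 47. For KO against WT they were 0, 0, 0 and 17 at 0, 1, 2 and 4 h, and 5 in the difference. Of all genes 1.33%, 6.54% and 9.92% were then lower in WT and 1.52%, 5.87% and 10.7% in KO. For KO against WT at 4 h 0.982% were higher, and in the difference 0.0928%.

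With the 15 most abundant genes left out of the total, members took 10.9%, 10.1%, 9.08% and 8.43% of reads in WT and 10.1%, 9.94%, 9.77% and 9.96% in KO at 0, 1, 2 and 4 h. With paralogs and pseudogenes added the share was 7.19% in WT at 4 h and 8.33% in KO at 0 h. Of 1207 values of named members under the alternatives, 1054 kept direction and call. Counting error is small beside library spread at these depths.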
